A study of Mus musculus with 12 samples.

Results

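The 57 genes described here encode proteins that carry a cell through mitosis and cytokinesis, and they were picked by gene symbol from the 23106 genes of the deposited expression table. All 57 symbols were found there by Ensembl identifier, and all 57 reached the minimum set for testing, a mean of 10 normalised reads over the 12 libraries, which 12676 genes did. They are treated in 8 groups by role: the CDK1 engine, the chromosomal passenger complex, the spindle assembly checkpoint, anaphase onset and exit, centromere and kinetochore, spindle kinesins and microtubule proteins, central spindle and cytokinesis, and chromosome structure. A normalised read is 1 read per 10000000 reads assigned to genes, since every column of the table sums to that number.

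The cells were cultured fibroblasts from the colon of C57BL/6 mice aged 12 weeks, given no treatment and collected 24 h after plating. The labels' protocols also name 10% serum and a confluency of about 80%. The 12 libraries form 3 groups of 4: WT cells carrying a guide named sgScr (WT-labelled), Prkcz-/- cells carrying sgScr (knockout-labelled), and Prkcz-/- cells carrying a guide named sgSox2 (Sox2-guide). The first 2 groups thus share the sgScr guide, and the last 2 share the Prkcz-/- genotype, the labelled loss of protein kinase C zeta. The submitters call the 4 libraries of a group biological replicates but do not say whether they came from separate animals, cultures or guide clones, so a p-value here measures the spread between these libraries. The sources used here do not give whether the Sox2-guide cells were 1 clone or a pool.

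Mitosis is driven by the kinase CDK1 with its cyclins, which starts chromosome condensation and spindle assembly, and it ends when the anaphase-promoting complex marks cyclin B and securin for destruction. Aurora and Polo-like kinases, kinesins and kinetochore proteins attach and move the chromosomes, a checkpoint holds anaphase until all are attached, and a central spindle then places the contractile ring that divides the cell. In mammals many of these genes are transcribed late in the cell cycle, through a MuvB complex that binds a promoter element called the CHR and the factor NF-Y that binds CCAAT boxes, and the same promoters are shut in resting cells.

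Promoter windows are shown first because the genes of this group share letters there that the choice by symbol did not use. The windows come from RefSeq on build GRCm38.p6, each running from 250 bases before to 50 bases after an annotated start, and so ending in the first transcribed bases. The RefSeq table held 51 windows for 48 of the 57 genes. A CHR was searched as TTTGAA or TTCGAA and a CCAAT box as CCAAT, on both strands and with overlaps allowed. A CHR was found in 78.4% of the members' windows and in 19.2% of all 32851 windows of the table, and a CCAAT box in 72.5% and 37.4%. An E2F motif, searched on both strands as TTTCCCGC, TTTCGCGC, TTTGCCGC or TTTGGCGC, was in 9.80% of members' windows and 2.26% of all. Over the 11974 windows of tested genes, which all members are, the shares were 13.6% for the CHR, 38.1% for the CCAAT box and 4.04% for the E2F motif. A match describes letters and is no evidence of binding.

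The 6 windows below run 5′ to 3′ on each gene's strand, with CHR and CCAAT-box letters in capitals on either strand. Kif23 (chr9:61946750-61947049, minus strand) is shown for the largest difference between the WT-labelled and knockout-labelled libraries, and Cdk1 (chr10:69352863-69353162, minus strand), Plk1 (chr7:122159185-122159484, plus strand) and Cenpa (chr5:30666636-30666935, plus strand) for their role and change. Bub3 (chr7:131560120-131560419, plus strand) holds both motifs. Its matches lie downstream of the gene's start as GENCODE annotates it (131560222), and its other window is not shown. Bub3 changed little in Sox2-guide against knockout-labelled libraries, at 0.04, but fell by 0.46 in knockout-labelled against WT-labelled ones. Pttg1 (chr11:43425932-43426231, minus strand) holds neither and moved against the rest, whereas the other members with neither motif fell in the knockout-labelled libraries. The Pttg1 window lies wholly inside the gene as GENCODE annotates it (43420250 to 43426251), so bases upstream of the GENCODE start were not searched.
Kif23: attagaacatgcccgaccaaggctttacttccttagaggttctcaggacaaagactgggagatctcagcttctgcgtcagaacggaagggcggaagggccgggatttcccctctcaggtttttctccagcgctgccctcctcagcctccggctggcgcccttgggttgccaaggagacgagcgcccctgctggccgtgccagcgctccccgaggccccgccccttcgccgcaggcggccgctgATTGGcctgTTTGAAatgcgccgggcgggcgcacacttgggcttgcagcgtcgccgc
Cdk1: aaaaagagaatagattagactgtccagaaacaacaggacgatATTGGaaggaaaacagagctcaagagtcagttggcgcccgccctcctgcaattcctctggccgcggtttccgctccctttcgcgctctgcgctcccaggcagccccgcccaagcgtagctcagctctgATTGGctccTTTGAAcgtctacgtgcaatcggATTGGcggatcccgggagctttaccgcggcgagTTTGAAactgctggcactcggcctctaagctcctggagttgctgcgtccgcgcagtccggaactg
Plk1: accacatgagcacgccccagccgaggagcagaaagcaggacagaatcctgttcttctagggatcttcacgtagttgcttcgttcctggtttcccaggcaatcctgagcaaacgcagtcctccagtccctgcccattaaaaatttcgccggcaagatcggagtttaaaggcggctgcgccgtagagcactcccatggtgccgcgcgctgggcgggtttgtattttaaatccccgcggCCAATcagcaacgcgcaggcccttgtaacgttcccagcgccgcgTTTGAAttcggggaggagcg
Cenpa: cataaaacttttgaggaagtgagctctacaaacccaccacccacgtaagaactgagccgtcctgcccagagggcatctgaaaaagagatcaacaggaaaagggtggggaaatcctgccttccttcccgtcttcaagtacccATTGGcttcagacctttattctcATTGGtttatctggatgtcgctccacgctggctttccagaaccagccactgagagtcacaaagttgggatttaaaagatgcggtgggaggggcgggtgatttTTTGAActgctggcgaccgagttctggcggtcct
Bub3: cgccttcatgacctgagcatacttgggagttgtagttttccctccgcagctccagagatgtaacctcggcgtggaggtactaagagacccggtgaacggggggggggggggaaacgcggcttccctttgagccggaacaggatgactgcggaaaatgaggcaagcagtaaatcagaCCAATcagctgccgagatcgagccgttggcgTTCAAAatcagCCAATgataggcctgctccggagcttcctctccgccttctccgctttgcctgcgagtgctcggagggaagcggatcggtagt
Pttg1: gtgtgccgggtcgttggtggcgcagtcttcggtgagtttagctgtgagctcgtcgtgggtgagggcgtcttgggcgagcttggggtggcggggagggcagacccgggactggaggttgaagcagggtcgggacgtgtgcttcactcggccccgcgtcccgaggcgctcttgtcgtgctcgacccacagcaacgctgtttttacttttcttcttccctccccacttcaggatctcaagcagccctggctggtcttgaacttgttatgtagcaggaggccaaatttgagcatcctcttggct

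Most matches began in the part of the window nearest the start site. Of 55 CHR matches in members' windows, 40 began between 100 bases before and 50 bases after the annotated start, and so did 56 of 82 CCAAT-box matches. That stretch is a large part of the 300-base window, and matches there were not counted for other genes. Bub3, Prc1 and Ect2 have 2 windows each, and their matches count in both. At least 1 of the 2 motifs was found for 39 members and both for 32, while 9 members had neither: Melk, Birc5, Mad2l1, Pttg1, Nuf2, Kif18a, Nusap1, Cit and Ncaph. The window of Pttg1 held no bases upstream of its GENCODE start. In knockout-labelled against WT-labelled libraries Pttg1 rose, and the others with neither motif all fell, from -0.39 for Nuf2 to -2.10 for Mad2l1. The 37 members with a CHR had a median log2 change of -1.21 in knockout-labelled against WT-labelled libraries, and the 11 without had -1.03. Of the 3 members with the smallest changes in that comparison, Kifc1 and Spc25 held both motifs and Nuf2 held neither. Of the 3 smallest in Sox2-guide against knockout-labelled libraries, Bub3 and Ckap2 held both and Smc4 had no window. Of the other 2 mitotic lists, the 58 other mitosis genes with cell-cycle transcription had a CHR in 60.4% of 53 windows, and the 50 genes of the anaphase-promoting complex, cohesin, augmin and other machinery in 19.6% of 51 windows.

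**Figure D1:**
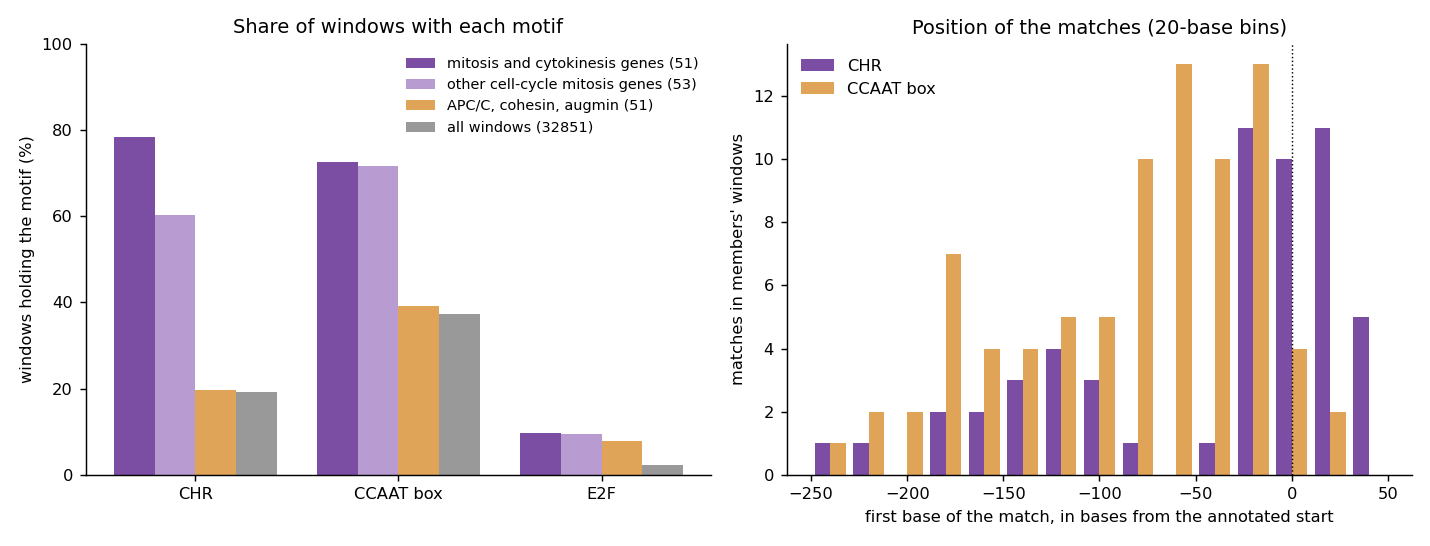
Left, share of promoter windows (%) that hold a CHR, a CCAAT box or an E2F motif, for the 51 windows of the mitosis and cytokinesis genes, for 2 other mitotic gene lists and for all 32851 windows. Right, number of matches in the members' windows by distance in bases from the annotated start, which peaks near 0 for the CHR and before it for the CCAAT box.

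Libraries held 2.67 to 5.20 M reads. Prkcz had 0 reads in each WT-labelled library, 3 to 13 under the knockout label and 11 to 16 with the Sox2 guide, which goes against the labels as far as a 3′ tag can check them, since the deleted part of the gene is not given. Sox2 had 0 or 1 read under the WT label, 425 to 636 under the knockout label and 0 with its own guide. Of 10 fibroblast markers, 10, 10 and 9 had reads in the 3 groups, with a summed level of 56262 to 60187, 138773 to 140418 and 61184 to 66837 normalised reads. Lum averaged 6.80 and 0.809 normalised reads under the WT and knockout labels and was at 0 in all Sox2-guide libraries. Thy1 averaged 942, 146 and 0.481 in the 3 groups. Col1a2 (13394, 16296 and 17306) and Vim (18846, 14820 and 21466) were highest with the Sox2 guide. Col1a1 (5829, 57381 and 11494) and Fn1 (13295, 42618 and 10185) had the largest means under the knockout label. Of the 9 markers tested, 3 were higher and 5 lower in Sox2-guide than in WT-labelled libraries, beside 30.1% and 22% of all genes. The 8 epithelial markers summed to at most 171, 15.6 and 28.8. Of 5 mesothelial markers, 2, 4 and 2 had reads in the 3 groups, and Msln averaged 1111, 0.782 and 358. The list did not move as one. Upk3b and Wt1 had reads only under the knockout label, with means of 1.54 and 5.71, and Lrrn4 was at 0 in all groups. The 6 smooth muscle markers summed to 128 to 168, 1009 to 1081 and 19.2 to 33.7. Of that sum Lmod1 averaged 8.03, 654 and 1.11 and Synm 23.6, 287 and 13.6, while Actg2 averaged 68.4, 42.7 and 5.26 and Cnn1 46.6, 52.3 and 6.76, and 2 of the 4 tested were higher in knockout-labelled than in WT-labelled libraries. What part these differences between the cultures have in the results below was not tested.

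Sox2-guide replicate 1 stood apart from the other 3 libraries of its group. Mitochondrial genes took 4.29% of its reads against 9.39% to 10.3%, and the 57 members 1.14% against 1.39% to 1.43%. Single genes departed in both directions, from Kif20b at 0.415 times to Spc24 at 1.46 times the mean of the other 3. The departure ran with base composition: over the 57 members, the log2 difference of replicate 1 from the others had a Spearman rho of 0.64 with the G+C content of the longest coding transcript and of -0.44 with its length, as a description of 1 library. Over 11386 tested genes these were 0.41 and -0.31. Leaving it out changed 1 call among the members in Sox2-guide against knockout-labelled libraries, that of Smc4, and 11 against WT, which are given with the counts for that comparison.

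**Figure D2:**
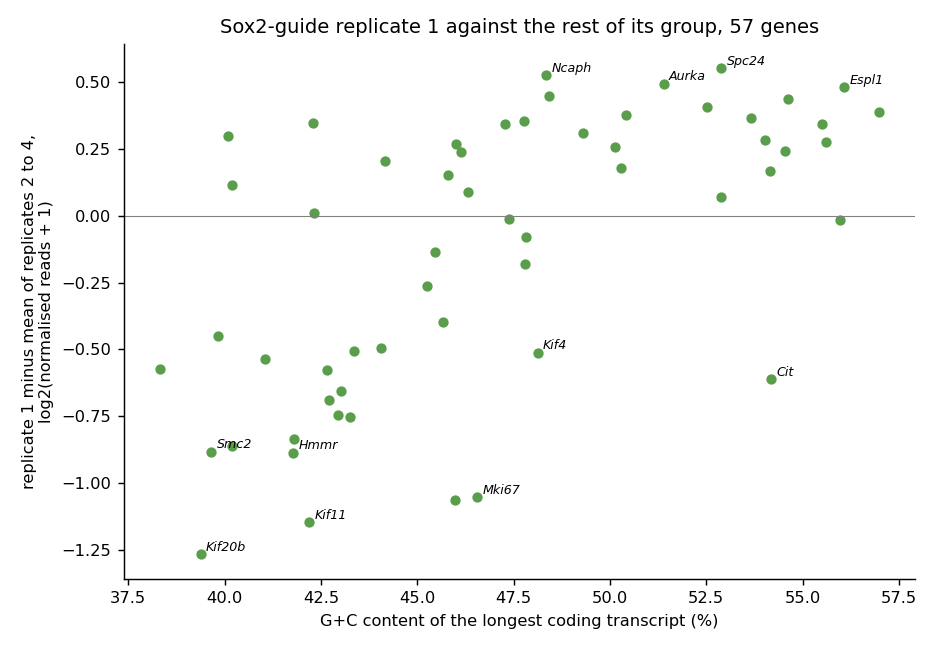
Each point is 1 of the 57 genes. The vertical axis is the level in Sox2-guide replicate 1 minus the mean of replicates 2 to 4, on the log2(normalised reads + 1) scale, and the horizontal axis is the G+C content (%) of the gene's longest coding transcript. Kif20b, Kif11, Mki67, Smc2 and Smc4 lie low, and Spc24, Ncaph and Aurka lie high.

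The members took 1.42 ± 0.0301% (SD, n = 4) of reads under the WT label, 0.690 ± 0.0128% under the knockout label and 1.34 ± 0.136% with the Sox2 guide. In knockout-labelled against WT-labelled libraries, 55 of the 57 genes fell, 1 rose and 1 did not pass the test. Of all tested genes, 29.4% fell and 37.6% rose, 67% in all. The median log2 change of the members was -1.17, which is 2.26-fold lower, beside 0.12 for all tested genes, and 33 members fell at least 2-fold, as 13.2% of all genes did. For 55 members every knockout-labelled library was below every WT-labelled one, which held for 29.2% of all genes. A lower share of dividing cells and less of these transcripts in each dividing cell cannot be told apart in RNA from whole cultures.

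In Sox2-guide against knockout-labelled libraries, 52 of the 57 genes rose, 1 fell and 4 did not pass. The background was 30.5% higher and 30.2% lower, 60.7% in all. The median log2 change was 1.15, which is 2.22-fold higher, beside -0.01 for all genes, and 33 members rose at least 2-fold, as 11.1% of all genes did. The groups did not overlap, with the Sox2-guide libraries above, for 49 members and for 26% of all genes, and with them below for 1 member, Pttg1, and 27.6% of all genes. This comparison shares the knockout-labelled libraries with the first one, so opposite directions in the 2 are not independent of each other.

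In Sox2-guide against WT-labelled libraries, 13 members were lower, 8 were higher and 36 did not pass. Of all tested genes, 22% were lower and 30.1% higher. The median log2 change was -0.01 beside 0.08 for all genes, and the groups did not overlap for 15 members below and 7 above, against 19.6% and 27% of all genes. Without Sox2-guide replicate 1 the counts were 16 lower and 14 higher, all 13 of the lower and 7 of the 8 higher genes among them. The call of Foxm1 was lost. Those gained were Ndc80 (0.27, limma adjusted p = 0.012), Nusap1 (0.42, 6.3e-05), Ckap2l (0.40, 9.6e-05), Kif20b, Cit, Ncapg (0.20, 0.021) and Top2a above WT, and Ccnb1 (-0.26, 0.020), Ccna2 (-0.18, 0.041) and Ncaph (-0.47, 0.010) below it. With all libraries, the 3 largest changes against WT were decreases of Anln, Ckap2 and Ect2. They were the only members at least 2-fold lower, as 8.3% of all genes were, and 0 were 2-fold higher.

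In knockout-labelled against WT-labelled libraries, quantile scaling moved the median of all genes more than that of the members. It took the median of all genes from 0.12 to -0.05, and the members' median relative to it from -1.30 to -1.13. Some members moved further in other comparisons. Top2a went from 0.22 to -0.17 in Sox2-guide against WT-labelled libraries, and Smc4 from 0.24 to -0.020 in Sox2-guide against knockout-labelled ones. In Sox2-guide against WT-labelled libraries, 57.8% of the called genes were higher under limma and 47.8% under DESeq2. The count of members lower in the knockout-labelled libraries was 55 under every alternative run.

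**Figure D3:**
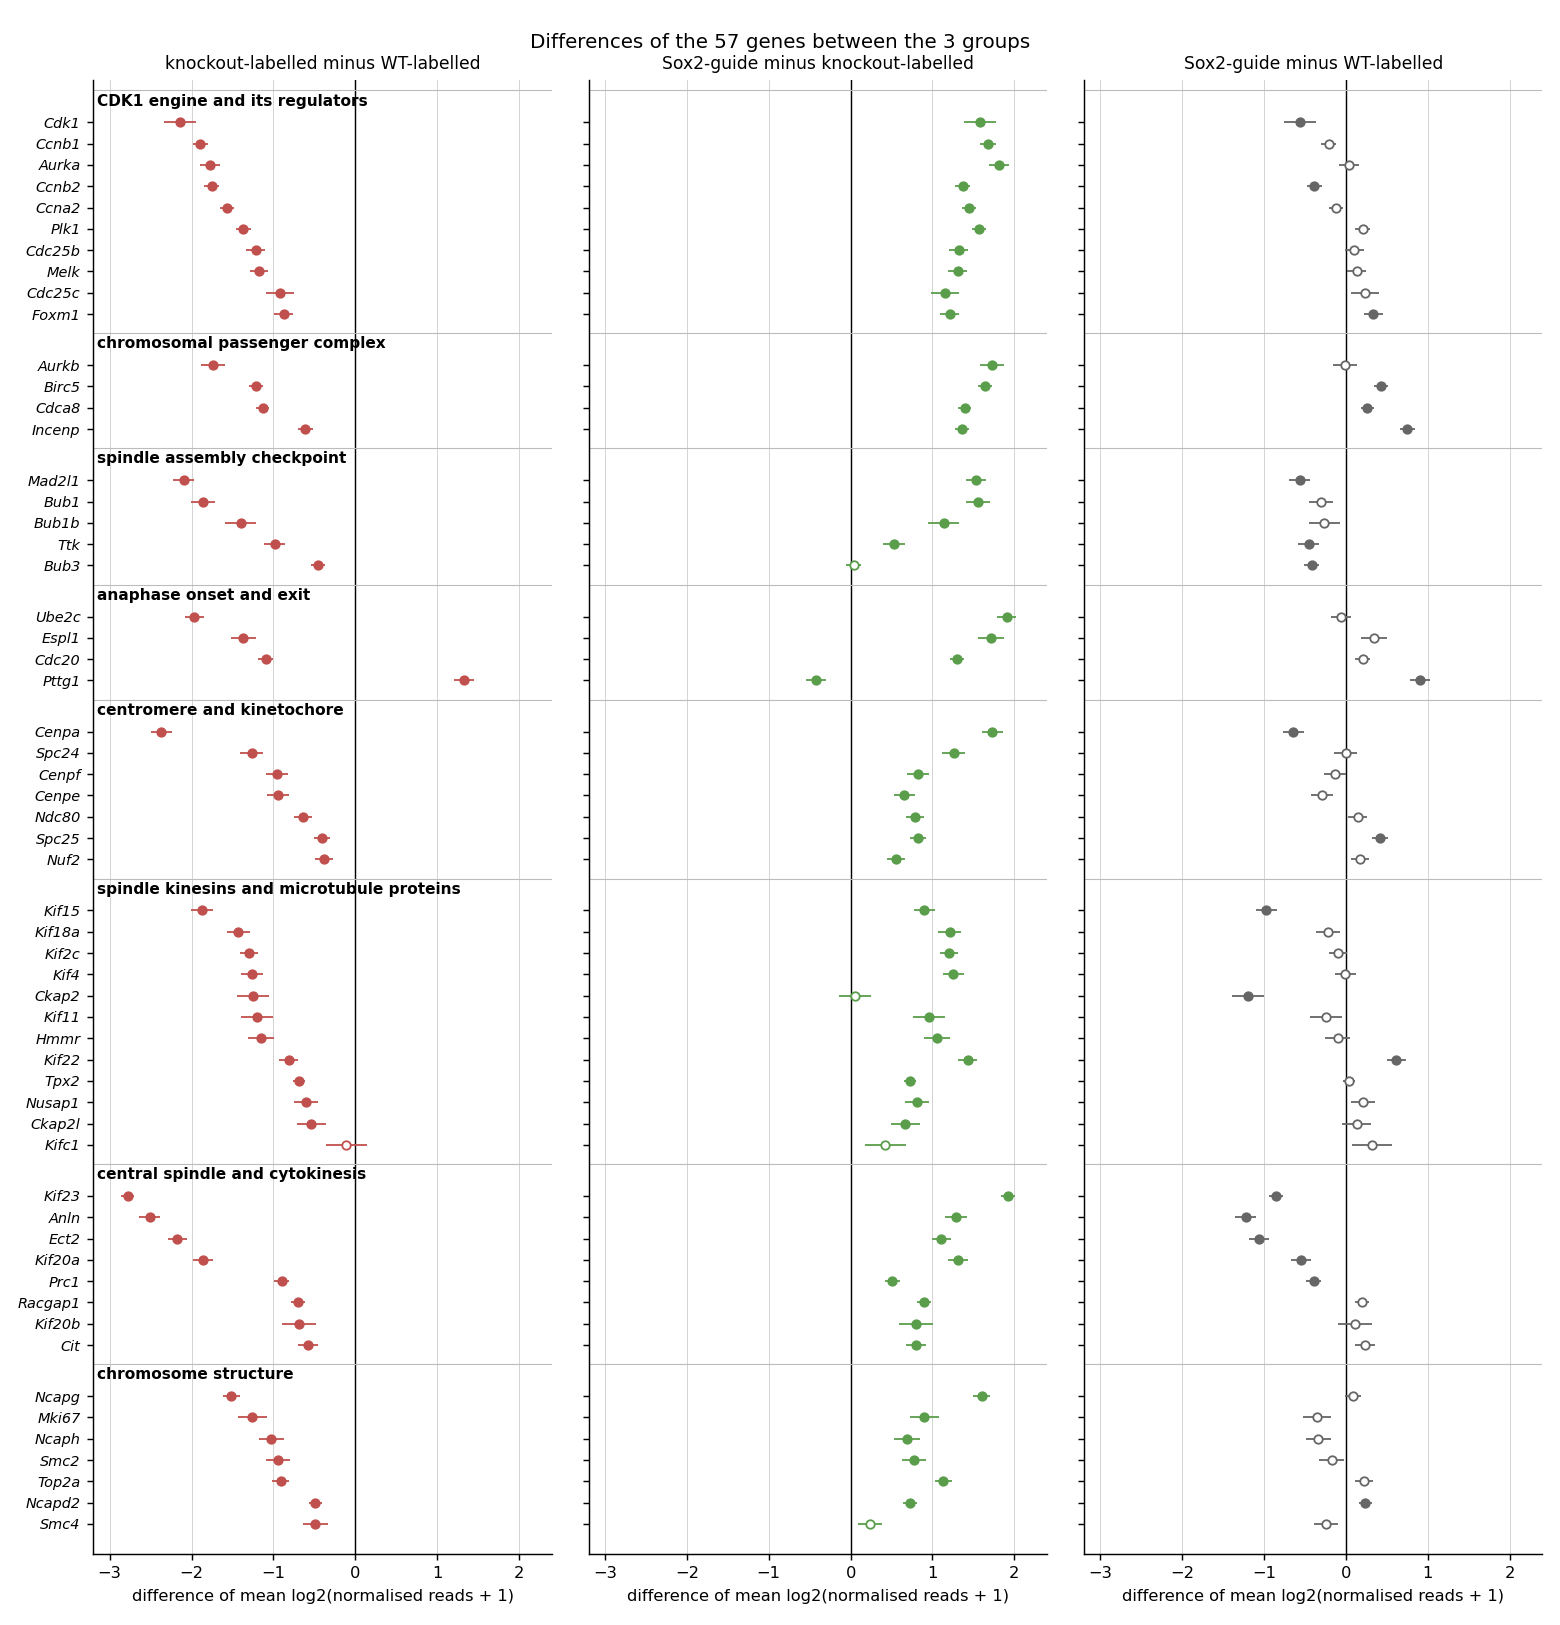
Difference of mean log2(normalised reads + 1) for each of the 57 genes, grouped by role, in the 3 comparisons. Points are the differences with their SE as bars, filled where the limma adjusted p was under 0.05 and open where it was not. In the left panel all points but Pttg1 lie below 0 and in the middle panel all but Pttg1 lie above it, while the right panel is spread around 0.

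In what follows, library values are normalised reads in replicates 1 to 4, changes are differences of mean log2(normalised reads + 1), and the test is limma over all 12 libraries with adjustment over the 12676 genes. The CDK1 engine fell as a whole: 10 of 10 genes fell in the knockout-labelled libraries, with a median log2 change of -1.46, and 10 of 10 rose in the Sox2-guide libraries over them, with a median of 1.40. Cdk1, the kinase that drives entry into mitosis, had 6335, 5922, 6207 and 6344 normalised reads under the WT label, 1839.6, 1516, 1731 and 796 under the knockout label and 5043, 4694, 3598 and 3626 with the Sox2 guide. Every knockout-labelled value was below the rest, the fourth far below the other 3, and the Sox2-guide values lay between the other groups. Its change was -2.15 (SE 0.19, adjusted p = 5.8e-08) in knockout-labelled against WT-labelled, 1.58 (SE 0.19, adjusted p = 2.7e-06) in Sox2-guide against knockout-labelled and -0.56 (SE 0.19, adjusted p = 0.023) in Sox2-guide against WT-labelled libraries. The last of these was lost without Sox2-guide replicate 3 (adjusted p = 0.067) or 4 (0.066).

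Plk1, a Polo-like kinase that acts from centrosome maturation to cytokinesis, had 3831, 3618, 3750.1 and 4557 normalised reads under the WT label, 1496, 1528, 1512 and 1553 under the knockout label and 4476, 3964, 4512 and 5194 with the Sox2 guide. The knockout-labelled libraries lay close together and apart from all others, while WT-labelled and Sox2-guide values overlapped. It fell by 1.37 (SE 0.09, adjusted p = 1.0e-09) and rose by 1.57 (SE 0.09, adjusted p = 2.7e-10). Aurka, the Aurora kinase of centrosomes and spindle poles, had 906, 971, 865 and 995 normalised reads under the WT label, 256, 297, 238 and 301 under the knockout label and 1236, 915, 866 and 855 with the Sox2 guide. Sox2-guide replicate 1 was the highest of its group, and the other 3 lay within the WT-labelled range or just below it. Its change was -1.78 (SE 0.12, adjusted p = 1.6e-09) and then 1.81 (SE 0.12, adjusted p = 1.9e-09), and against WT 0.04 (SE 0.12, adjusted p = 0.83), a value whose sign turned under quantile scaling, edgeR and DESeq2. Foxm1, a transcription factor that activates late cell-cycle genes, had 1071, 964, 859 and 1159.8 normalised reads under the WT label, 553, 516, 582 and 544 under the knockout label and 1594, 1108, 1173 and 1252 with the Sox2 guide. It fell by 0.88 (SE 0.12, adjusted p = 4.5e-06) and rose by 1.21 (SE 0.12, adjusted p = 1.4e-07), above the WT level by 0.33 (SE 0.12, adjusted p = 0.024), a call that did not hold without replicate 1 of the Sox2-guide group (0.22, adjusted p = 0.057), without WT-labelled replicate 2 (0.061) or 3 (0.090), in a fit of the 2 groups alone (0.057), or under edgeR (0.052) or DESeq2 (0.12).

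Ccnb1, cyclin B1, averaged 2151 ± 98.7, 582 ± 76 and 1862 ± 148 normalised reads in WT-labelled, knockout-labelled and Sox2-guide libraries (SD, n = 4 in each group), and fell by 1.89 (SE 0.10, adjusted p = 3.6e-11). Ccnb2, cyclin B2, averaged 1356 ± 52.7, 403 ± 28.6 and 1043 ± 122 normalised reads in WT-labelled, knockout-labelled and Sox2-guide libraries (SD, n = 4 in each group), and was below WT in the Sox2-guide libraries, with a change of -0.38 (SE 0.09, adjusted p = 0.0023). Ccna2, cyclin A2, averaged 2546 ± 227, 859 ± 41.2 and 2337 ± 204 normalised reads in WT-labelled, knockout-labelled and Sox2-guide libraries (SD, n = 4 in each group). The phosphatases that activate CDK1 fell as well, with changes of -1.21 (SE 0.12, adjusted p = 1.2e-07) for Cdc25b and -0.92 (SE 0.17, adjusted p = 2.0e-04) for Cdc25c. Melk, a mitotic kinase gene, had -1.17 (SE 0.11, adjusted p = 1.2e-07).

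All 4 genes of the chromosomal passenger complex, which corrects faulty attachments and later marks the site of division, fell in the knockout-labelled libraries. All 4 rose in Sox2-guide over knockout-labelled libraries, and 3 of the 4 ended above WT, as 30.1% of all tested genes did. Birc5, survivin, had 5211, 5059, 4771 and 5460.4 normalised reads under the WT label, 2138, 2088, 2112 and 2488 under the knockout label and 6829, 6153, 6865 and 7745 with the Sox2 guide. The 3 groups did not overlap, with Sox2-guide values highest and knockout-labelled values lowest. The changes were -1.22 (SE 0.09, adjusted p = 2.2e-09), 1.64 (SE 0.09, adjusted p = 7.7e-11) and, against WT, 0.43 (SE 0.09, adjusted p = 5.2e-04). Incenp, the scaffold of the complex, had 1156, 1163, 1200.2 and 1248 normalised reads under the WT label, 744, 805, 719.8 and 864 under the knockout label and 2278, 1787, 1971 and 2020.3 with the Sox2 guide. Its Sox2-guide libraries all exceeded the WT-labelled ones, and the changes were -0.61 (SE 0.09, adjusted p = 1.2e-05), 1.36 (SE 0.09, adjusted p = 1.2e-09) and 0.75 (SE 0.09, adjusted p = 2.4e-06).

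Cdca8, borealin, had 1588, 1477, 1439.6 and 1577 normalised reads under the WT label, 626, 668, 739 and 748 under the knockout label and 1889.9, 1718, 1803 and 1879.5 with the Sox2 guide, again with 3 separate groups. Its difference between Sox2-guide and WT-labelled libraries was 0.26 (SE 0.08, adjusted p = 0.012), which edgeR (0.096) and DESeq2 (0.19) did not call. Aurkb, the kinase of the complex, had 672, 779.98, 853 and 785 normalised reads under the WT label, 248, 230.4, 247 and 197 under the knockout label and 942, 926, 633 and 613 with the Sox2 guide. The Sox2-guide libraries fell into a higher and a lower pair around the WT-labelled ones. It fell by 1.74 (SE 0.14, adjusted p = 1.8e-08), rose by 1.73 (SE 0.14, adjusted p = 2.9e-08) and was at -0.01 (SE 0.14, adjusted p = 0.95) against WT.

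Of the 5 checkpoint genes, which delay anaphase while kinetochores are unattached, 5 fell in the knockout-labelled libraries and 4 rose in the Sox2-guide libraries. Against WT, 3 of the 5 stayed lower and 0 were higher, beside 22% and 30.1% of all tested genes. Mad2l1, the checkpoint protein MAD2, had 2536, 2748, 2658 and 2724 normalised reads under the WT label, 774, 595, 648 and 502 under the knockout label and 2101, 2018, 1559 and 1583 with the Sox2 guide. The groups did not overlap and the Sox2-guide libraries lay between the others. The changes were -2.10 (SE 0.12, adjusted p = 2.5e-10), 1.53 (SE 0.12, adjusted p = 2.0e-08) and -0.57 (SE 0.12, adjusted p = 0.0011). Bub3, which brings checkpoint kinases to kinetochores, had 2221, 2239, 2311 and 2382 normalised reads under the WT label, 1695, 1744, 1655 and 1576 under the knockout label and 2048, 1740.3, 1499 and 1600.4 with the Sox2 guide. Its knockout-labelled and Sox2-guide values overlapped, and both groups were below every WT-labelled value. It fell by 0.46 (SE 0.09, adjusted p = 2.5e-04) and did not pass in Sox2-guide against knockout-labelled libraries, at 0.04 (SE 0.09, adjusted p = 0.73), with a sign that turned under quantile scaling. Its partner kinase Bub1 averaged 943 ± 92.6, 259.8 ± 37.8 and 774 ± 164 normalised reads in WT-labelled, knockout-labelled and Sox2-guide libraries (SD, n = 4 in each group), and the related kinase-like protein gene Bub1b 552 ± 21.4, 216 ± 60.5 and 467 ± 89.7 normalised reads in WT-labelled, knockout-labelled and Sox2-guide libraries (SD, n = 4 in each group). Ttk, the kinase MPS1 at the head of the checkpoint, changed by -0.98 (SE 0.13, adjusted p = 5.1e-06), 0.53 (SE 0.13, adjusted p = 0.0023) and -0.45 (SE 0.13, adjusted p = 0.0082).

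The 4 genes of anaphase onset and exit parted ways, since 3 fell and 1 rose in the knockout-labelled libraries. Ube2c, the ubiquitin-conjugating enzyme of the anaphase-promoting complex, had 1708, 1845, 1754 and 1725 normalised reads under the WT label, 520.4, 440.3, 507 and 349 under the knockout label and 2015, 1660.2, 1533 and 1568 with the Sox2 guide. The knockout-labelled libraries were apart, and the Sox2-guide libraries surrounded the WT-labelled ones. It fell by 1.97 (SE 0.12, adjusted p = 3.1e-10) and rose by 1.91 (SE 0.12, adjusted p = 7.4e-10), among the 3 largest increases of the 57. Cdc20, the activator of that complex, had 1468, 1351, 1517 and 1389.7 normalised reads under the WT label, 711, 624, 695 and 647 under the knockout label and 1903, 1459.9, 1615 and 1645 with the Sox2 guide, and changed by -1.10 (SE 0.09, adjusted p = 1.3e-08) and 1.30 (SE 0.09, adjusted p = 2.4e-09). Espl1, separase, the protease that cuts cohesin at anaphase, averaged 475 ± 82.7, 183 ± 28.8 and 605 ± 117 normalised reads in WT-labelled, knockout-labelled and Sox2-guide libraries (SD, n = 4 in each group), and fell by 1.37 (SE 0.16, adjusted p = 9.3e-07).

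Pttg1, securin, which holds separase inactive until anaphase, was the 1 member that rose. It had 451, 480.3, 473 and 506 normalised reads under the WT label, 1289, 1134, 1102 and 1278 under the knockout label and 1027, 665, 914 and 1013 with the Sox2 guide. No library overlapped between groups, and the order was knockout-labelled, Sox2-guide, WT-labelled from high to low. The changes were 1.33 (SE 0.12, adjusted p = 5.6e-08), -0.43 (SE 0.12, adjusted p = 0.0059) and, against WT, 0.90 (SE 0.12, adjusted p = 1.1e-05). Espl1 rose by 1.71 (SE 0.16, adjusted p = 8.7e-08) in Sox2-guide over knockout-labelled libraries. Securin and separase transcripts thus moved in opposite directions in the 2 comparisons that share the knockout-labelled libraries. Against WT, Espl1 was at 0.35 (SE 0.16, adjusted p = 0.075), with the same sign as Pttg1.

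**Figure D4:**
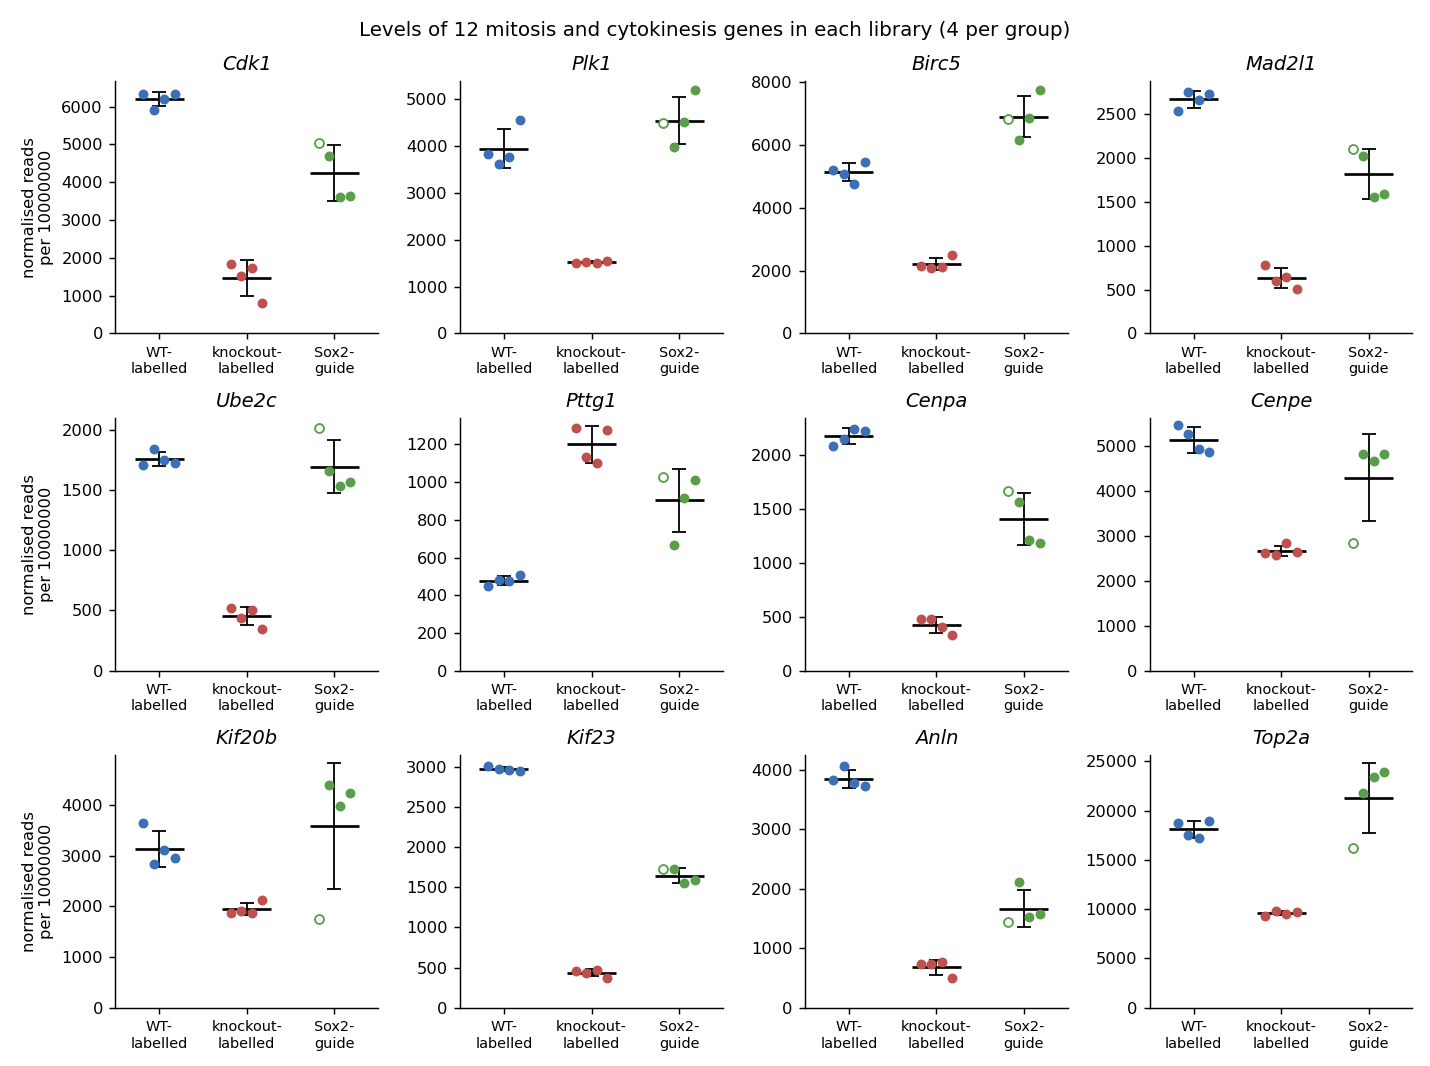
Normalised reads per 10000000 in each library for 12 of the genes (vertical axis, from 0). Points are libraries, the open point is Sox2-guide replicate 1, and bars are group means ± SD (n = 4). The knockout-labelled mean is the lowest of the 3 in 11 panels and the highest for Pttg1, and Sox2-guide replicate 1 lies near the knockout-labelled libraries for Cenpe and below them for Kif20b.

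The centromere and kinetochore genes fell 7 of 7 in the knockout-labelled libraries, with a median log2 change of -0.95, and 7 of 7 rose in the Sox2-guide libraries. Cenpa, the histone H3 variant that marks centromeres, had 2081, 2149, 2236 and 2218 normalised reads under the WT label, 478, 481, 404 and 330.1 under the knockout label and 1659, 1565, 1207 and 1186 with the Sox2 guide. The 3 groups were separate, with Sox2-guide libraries in the middle. Its changes were -2.37 (SE 0.13, adjusted p = 8.5e-11), among the 3 largest of the 57, then 1.73 (SE 0.13, adjusted p = 6.9e-09) and -0.64 (SE 0.13, adjusted p = 5.0e-04). The motor gene Cenpe, whose kinesin carries chromosomes to the spindle equator, had 5461, 5250.4, 4911 and 4849 normalised reads under the WT label, 2616, 2557, 2826 and 2628 under the knockout label and 2839.6, 4807, 4662 and 4821 with the Sox2 guide. Only Sox2-guide replicate 1 lay near the knockout-labelled libraries. Cenpe fell by 0.95 (SE 0.13, adjusted p = 8.5e-06) and rose by 0.66 (SE 0.13, adjusted p = 4.2e-04). Cenpf, a large protein of the outer kinetochore, had 5994, 5207, 5414 and 5171 normalised reads under the WT label, 2728, 2907, 2726 and 2854 under the knockout label and 3355, 5877, 5456 and 5666 with the Sox2 guide, with the same library low, and changed by -0.96 (SE 0.13, adjusted p = 9.0e-06) and 0.83 (SE 0.13, adjusted p = 5.4e-05).

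The 4 genes of the NDC80 complex encode the part of the kinetochore that grips microtubule ends. Nuf2 had 471, 556, 602 and 539 normalised reads under the WT label, 455, 367, 382 and 453 under the knockout label and 609, 605, 671 and 546 with the Sox2 guide. Its WT-labelled and knockout-labelled values were close but did not overlap, and it fell by 0.39 (SE 0.11, adjusted p = 0.005) and rose by 0.55 (SE 0.11, adjusted p = 3.5e-04). Spc25 had 1438, 1387, 1329 and 1239 normalised reads under the WT label, 931, 1026, 911 and 1226 under the knockout label and 1673, 1727, 1855 and 1944 with the Sox2 guide, with the Sox2-guide libraries above all WT-labelled ones. The changes were -0.40 (SE 0.10, adjusted p = 0.0015), 0.82 (SE 0.10, adjusted p = 1.6e-06) and 0.42 (SE 0.10, adjusted p = 0.0018). Spc24 had 633, 639, 521 and 647 normalised reads under the WT label, 256, 242, 288 and 227 under the knockout label and 807, 549.7, 479.7 and 632 with the Sox2 guide. The third WT-labelled library was low, and WT-labelled and Sox2-guide libraries overlapped. It fell by 1.27 (SE 0.14, adjusted p = 7.0e-07), rose by 1.26 (SE 0.14, adjusted p = 9.7e-07) and was at -0.00 (SE 0.14, adjusted p = 0.98) against WT. Ndc80 itself averaged 1096 ± 97.1, 702 ± 51.2 and 1222 ± 200 normalised reads in WT-labelled, knockout-labelled and Sox2-guide libraries (SD, n = 4 in each group), and changed by -0.64 (SE 0.11, adjusted p = 1.1e-04).

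Of the 12 spindle kinesins and microtubule proteins, 11 fell in the knockout-labelled libraries and 10 rose in the Sox2-guide libraries. Tpx2, which activates Aurora A on the spindle, had 2526, 2362, 2337 and 2474 normalised reads under the WT label, 1598, 1438, 1502 and 1489 under the knockout label and 2257, 2646, 2541 and 2494 with the Sox2 guide. The knockout-labelled group was separate and the others overlapped, with changes of -0.69 (SE 0.07, adjusted p = 3.6e-07) and 0.72 (SE 0.07, adjusted p = 2.8e-07). Hmmr, a spindle-assembly protein, had 2065, 2145, 1859 and 1978 normalised reads under the WT label, 909, 1012, 879 and 815 under the knockout label and 1179, 2268, 2241 and 2047 with the Sox2 guide. Its Sox2-guide replicate 1 was the lowest of its group, nearer to the knockout-labelled libraries. It fell by 1.16 (SE 0.16, adjusted p = 6.6e-06) and rose by 1.05 (SE 0.16, adjusted p = 2.3e-05). Kif4, the chromokinesin, had 639.6, 758, 688 and 697 normalised reads under the WT label, 285, 262, 269 and 346 under the knockout label and 529, 737, 705 and 827 with the Sox2 guide, and changed by -1.26 (SE 0.13, adjusted p = 2.7e-07) and 1.25 (SE 0.13, adjusted p = 3.9e-07).

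Kif22, another chromokinesin, had 545, 491, 557 and 476 normalised reads under the WT label, 256, 315, 294 and 311 under the knockout label and 959, 661, 764 and 813 with the Sox2 guide. All Sox2-guide libraries were above the WT-labelled ones, and the changes were -0.82 (SE 0.12, adjusted p = 1.2e-05), 1.43 (SE 0.12, adjusted p = 2.3e-08) and 0.62 (SE 0.12, adjusted p = 3.3e-04). Ckap2, a microtubule-stabilising protein of the spindle, had 896, 1199, 1233 and 1074 normalised reads under the WT label, 539, 557, 485 and 304 under the knockout label and 352, 623, 569.6 and 409.99 with the Sox2 guide. Sox2-guide and knockout-labelled libraries overlapped and both were below WT. It fell by 1.25 (SE 0.20, adjusted p = 3.0e-05) in the knockout-labelled libraries, was at 0.05 (SE 0.20, adjusted p = 0.83) in Sox2-guide against them and at -1.20 (SE 0.20, adjusted p = 8.3e-05) against WT. Kifc1, a minus-end kinesin that bundles spindle poles, had 87.7, 61.4, 83.8 and 125 normalised reads under the WT label, 106, 81.6, 78.2 and 61.5 under the knockout label and 133, 77.9, 97.4 and 136 with the Sox2 guide. All 3 groups overlapped, at 419 reads over the 12 libraries, the fewest of any member, and neither -0.11 (SE 0.25, adjusted p = 0.71) nor 0.43 (SE 0.25, adjusted p = 0.15) passed.

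Among the remaining motors, Kif11, the kinesin that pushes spindle poles apart, fell by 1.20 (SE 0.20, adjusted p = 4.3e-05). Kif15, which shares that task, fell by 1.87 (SE 0.13, adjusted p = 1.9e-09) and stayed at -0.97 (SE 0.13, adjusted p = 1.0e-05) against WT. Kif18a and Kif2c, which shorten microtubules at kinetochores, had log2 changes of -1.43 and -1.30. The microtubule-binding Nusap1 fell by 0.60 (SE 0.15, adjusted p = 0.0018). Ckap2l, a spindle protein related to Ckap2, fell by 0.53 (SE 0.18, adjusted p = 0.014).

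The central spindle and cytokinesis genes fell 8 of 8 in the knockout-labelled libraries and rose 8 of 8 in the Sox2-guide libraries. Of the 8, 5 remained below WT, as 22% of all tested genes were. With all libraries 0 of the 8 were above WT, and without Sox2-guide replicate 1 there were 2, Kif20b and Cit. Kif23, the kinesin of the centralspindlin complex, had 3013, 2975, 2966 and 2954 normalised reads under the WT label, 457, 432, 473 and 375 under the knockout label and 1723, 1723, 1555 and 1586 with the Sox2 guide. The WT-labelled libraries lay close together and far above all others. The change of -2.78 (SE 0.08, adjusted p = 6.1e-14) was the largest of the 57, a 6.86-fold decrease, and the changes of 1.92 (SE 0.08, adjusted p = 7.7e-12) and -0.86 (SE 0.08, adjusted p = 2.7e-07) followed. Racgap1, the partner of KIF23 in centralspindlin, averaged 2058 ± 133, 1268 ± 54.8 and 2366 ± 237 normalised reads in WT-labelled, knockout-labelled and Sox2-guide libraries (SD, n = 4 in each group), and fell by 0.70 (SE 0.08, adjusted p = 1.4e-06).

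Anln, anillin, the scaffold that ties the contractile ring to the membrane, had 3828, 4066, 3777 and 3732 normalised reads under the WT label, 734, 729, 773 and 498 under the knockout label and 1434, 2121, 1533 and 1571 with the Sox2 guide. The groups did not overlap, and the fourth knockout-labelled library was the lowest of all. Its changes were -2.51 (SE 0.13, adjusted p = 7.1e-11), 1.29 (SE 0.13, adjusted p = 3.9e-07) and -1.23 (SE 0.13, adjusted p = 1.1e-06). Ect2, the exchange factor that switches on RhoA at the division plane, had 2338, 2383, 2487 and 2339 normalised reads under the WT label, 579, 598, 563 and 401 under the knockout label and 1211, 1326, 1031 and 1025 with the Sox2 guide. Again the Sox2-guide libraries lay between the other groups, with changes of -2.17 (SE 0.12, adjusted p = 1.0e-10), 1.11 (SE 0.12, adjusted p = 5.7e-07) and -1.06 (SE 0.12, adjusted p = 1.5e-06). Prc1, which bundles the microtubules of the central spindle, had 3981, 3857, 3597 and 3542 normalised reads under the WT label, 2079, 2000.3, 1906 and 2039 under the knockout label and 2319, 2979.9, 3065 and 3114 with the Sox2 guide, and changed by -0.90 (SE 0.09, adjusted p = 2.0e-07), 0.51 (SE 0.09, adjusted p = 1.4e-04) and -0.39 (SE 0.09, adjusted p = 0.0017).

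Kif20b, a kinesin of late cytokinesis, had 3643, 2838, 3113 and 2957 normalised reads under the WT label, 1874, 1913, 1862 and 2119.5 under the knockout label and 1742, 4386, 3976 and 4241 with the Sox2 guide. Sox2-guide replicate 1 was below all knockout-labelled libraries and the other 3 were above all WT-labelled ones. It fell by 0.69 (SE 0.21, adjusted p = 0.0083) and rose by 0.80 (SE 0.21, adjusted p = 0.0036). Against WT it was at 0.11 (SE 0.21, adjusted p = 0.69) with all libraries and at 0.43 (adjusted p = 2.7e-04) without replicate 1. Kif20a, a kinesin that delivers passenger proteins to the central spindle, fell by 1.86 (SE 0.12, adjusted p = 7.7e-10) and stayed at -0.55 (SE 0.12, adjusted p = 0.0011) against WT. Cit, the citron kinase of the midbody, fell by 0.57 (SE 0.12, adjusted p = 5.7e-04), and against WT was at 0.23 (SE 0.12, adjusted p = 0.13) with all libraries and at 0.38 (adjusted p = 3.9e-04) without that replicate.

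The 7 chromosome structure genes fell 7 of 7 in the knockout-labelled libraries and rose 6 of 7 in the Sox2-guide libraries. Top2a, the topoisomerase that untangles sister chromatids, had 18760.4, 17532, 17200.2 and 18928 normalised reads under the WT label, 9326, 9821, 9536 and 9749.9 under the knockout label and 16182, 21785, 23399 and 23885 with the Sox2 guide. Knockout-labelled libraries were about level with each other and below all others. It fell by 0.91 (SE 0.11, adjusted p = 1.1e-06) and rose by 1.13 (SE 0.11, adjusted p = 1.1e-07). Against WT it was at 0.22 (SE 0.11, adjusted p = 0.093), at 0.35 (adjusted p = 3.9e-05) without Sox2-guide replicate 1 and at -0.17 under quantile scaling, which did not pass.

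Smc4, a core subunit of condensin, had 17559, 16795, 16239 and 16841 normalised reads under the WT label, 12133, 12439, 12139 and 11433 under the knockout label and 9080.3, 17014, 16354 and 16162 with the Sox2 guide. Sox2-guide replicate 1 was below every knockout-labelled library and the other 3 were near WT. It fell by 0.49 (SE 0.15, adjusted p = 0.0083), and its change from knockout-labelled to Sox2-guide libraries was 0.24 (SE 0.15, adjusted p = 0.17), or 0.46 (adjusted p = 5.6e-07) without that library. Ncapd2, a condensin I subunit, had 1759.8, 1657, 1679 and 1679 normalised reads under the WT label, 1201, 1158, 1233 and 1236 under the knockout label and 2315, 1836, 1848 and 2028 with the Sox2 guide, with changes of -0.49 (SE 0.08, adjusted p = 5.2e-05), 0.73 (SE 0.08, adjusted p = 8.5e-07) and 0.24 (SE 0.08, adjusted p = 0.021). The last call was lost under edgeR (adjusted p = 0.10), under DESeq2 (0.20) and without WT-labelled replicate 2 (0.053). The other condensin genes fell too, with changes of -0.95 (SE 0.15, adjusted p = 3.2e-05) for Smc2, -1.51 (SE 0.10, adjusted p = 1.2e-09) for Ncapg and -1.03 (SE 0.16, adjusted p = 2.0e-05) for Ncaph. Mki67, the proliferation marker Ki-67 that coats mitotic chromosomes, averaged 4425 ± 311, 1848 ± 50 and 3609.8 ± 1083 normalised reads in WT-labelled, knockout-labelled and Sox2-guide libraries (SD, n = 4 in each group), and fell by 1.26 (SE 0.17, adjusted p = 7.9e-06).

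Ratios between genes whose proteins work as partners were compared in each library, since a ratio does not depend on depth. The 7 ratios in 3 comparisons made 21 exact two-sided permutation tests, whose smallest possible p was 0.0286. The unadjusted p was at that minimum in 10 of the 21, which gave an adjusted p of 0.06, so 0 passed, and limma on the same ratios, chosen after seeing this, called 8. The log2 ratio of Kif23 to Racgap1 was 0.57, 0.40, 0.57 and 0.60 under the WT label, -1.48, -1.59, -1.46 and -1.66 under the knockout label and -0.64, -0.47, -0.48 and -0.49 with the Sox2 guide. No library overlapped between groups, and the ratio was 4.24-fold lower in the knockout-labelled than in the WT-labelled libraries (limma adjusted p = 2.1e-10).

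The log2 ratio of Bub1 to Bub3 was -1.28 ± 0.147 (SD, n = 4) under the WT label, -2.69 ± 0.177 under the knockout label and -1.17 ± 0.452 with the Sox2 guide, so the checkpoint kinase fell more than its adaptor. The knockout-labelled ratio was 2.65-fold lower than WT (limma adjusted p = 7.0e-05). The 2 condensin cores differed less, with a log2 ratio of Smc2 to Smc4 of -1.07 ± 0.0185, -1.53 ± 0.0374 and -0.996 ± 0.0267 in the same order and little spread. That ratio hardly moved in Sox2-guide replicate 1, at -1.01, although both genes were low there. For cyclin B1 to CDK1 the ratio was -1.53, -1.27 and -1.17, with no call in any comparison by limma. All 4 of its Sox2-guide values (-1.39 to -0.96) were above all 4 WT-labelled ones (-1.60 to -1.46), 1 of the 10 tests at the minimum exact p. The ratio of Ndc80 to Nuf2 was 1.02, 0.76 and 0.99, also without a call. For Aurkb to Birc5 the ratio was -2.73, -3.25 and -3.17. Its knockout-labelled values were all below the WT-labelled ones, but limma did not call it (adjusted p = 0.078). For cyclin B1 to cyclin A2 the ratio was -0.24, -0.57 and -0.33. Limma called it in knockout-labelled against WT-labelled libraries (adjusted p = 0.022).

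**Figure D5:**
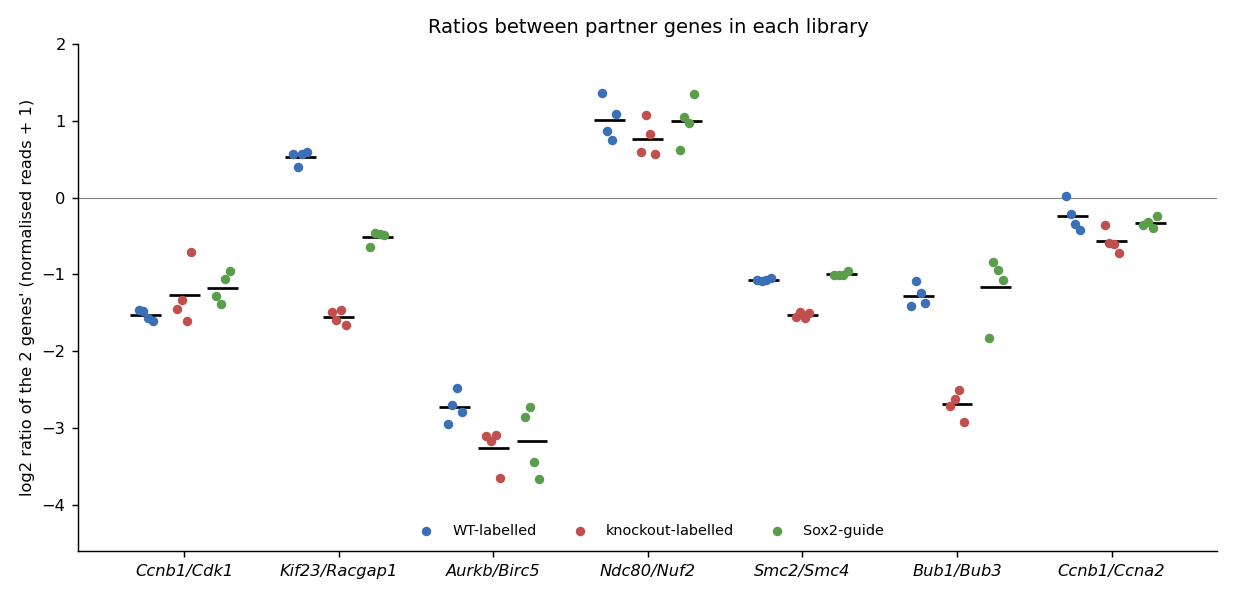
Log2 ratio of the 2 named genes' (normalised reads + 1) in each library for the 7 partner pairs, with group means as black lines (4 libraries per group). Kif23/Racgap1, Smc2/Smc4, Bub1/Bub3 and Aurkb/Birc5 have their lowest mean in the knockout-labelled libraries, with no overlap with the WT-labelled ones. Ccnb1/Cdk1, Ndc80/Nuf2 and Ccnb1/Ccna2 overlap between those 2 groups.

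Other genes of the cell cycle were taken from lists. Of 58 other mitosis genes with cell-cycle transcription, 43 fell and 6 rose in the knockout-labelled libraries, with a median of -0.99, and 45 rose and 1 fell in the Sox2-guide libraries over them. Of all genes, 29.4% fell and 37.6% rose in the first comparison, and 30.5% rose and 30.2% fell in the second. Hmgb2, a chromatin protein, averaged 2015 ± 86.4, 447 ± 51.2 and 973 ± 120 normalised reads in WT-labelled, knockout-labelled and Sox2-guide libraries (SD, n = 4 in each group), a change of -2.18 (SE 0.10, adjusted p = 1.7e-11). Cdca2, a phosphatase adaptor of chromosomes, changed by -1.61 (SE 0.09, adjusted p = 9.6e-11). Psrc1, a spindle protein, went the other way, at 112 ± 20.4, 471 ± 38.8 and 103 ± 11.5 normalised reads in WT-labelled, knockout-labelled and Sox2-guide libraries (SD, n = 4 in each group), with changes of 2.08 (SE 0.15, adjusted p = 4.6e-09) and -2.19 (SE 0.15, adjusted p = 3.6e-09). Stmn1, stathmin, which destabilises microtubules, rose by 0.86 (SE 0.11, adjusted p = 3.4e-06). The increases with the smallest adjusted p in the Sox2-guide libraries were those of Cdca3, a mitotic regulator, at 1.90 (SE 0.11, adjusted p = 2.1e-10), and the centromere gene Cenpi, at 1.69 (SE 0.10, adjusted p = 2.2e-10).

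The 50 genes of the anaphase-promoting complex, cohesin, augmin and other machinery, many of which are transcribed throughout the cycle, were counted in the same way. In the knockout-labelled libraries 23 fell and 7 rose, with a median of -0.21, beside 29.4% lower and 37.6% higher among all genes, and 4 fell at least 2-fold, where 13.2% of all genes did. In the Sox2-guide libraries over them 27 rose and 5 fell, beside 30.5% and 30.2% of all genes, and 1 rose at least 2-fold. Zw10, a kinetochore checkpoint protein, changed by -1.47 (SE 0.10, adjusted p = 1.8e-09), and Rhoa, the GTPase that builds the contractile ring, by -1.32 (SE 0.10, adjusted p = 8.1e-09). Numa1, the spindle pole organiser, changed by 0.89 (SE 0.10, adjusted p = 8.7e-07) and Anapc2, a core subunit of the anaphase-promoting complex, by 1.18 (SE 0.14, adjusted p = 1.2e-06). In the Sox2-guide libraries over the knockout-labelled ones, the augmin gene Haus3 changed by 0.67 (SE 0.08, adjusted p = 1.3e-06), Anapc4, of the anaphase-promoting complex, by 0.70 (SE 0.08, adjusted p = 1.4e-06), Ensa, an inhibitor of the phosphatase PP2A-B55, by -1.06 (SE 0.21, adjusted p = 3.9e-04), and Cdc16, of the anaphase-promoting complex, by -0.37 (SE 0.09, adjusted p = 0.0025).

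Among 23 genes of the MuvB, E2F, pocket protein and NF-Y factors that regulate these promoters, 10 fell and 5 rose in the knockout-labelled libraries, and 8 rose and 8 fell in the Sox2-guide libraries over them, beside 29.4% lower and 37.6% higher of all genes in the first comparison and 30.5% higher and 30.2% lower in the second. The repressor gene E2f4 averaged 786 ± 79.5, 157 ± 38.2 and 397 ± 123 normalised reads in WT-labelled, knockout-labelled and Sox2-guide libraries (SD, n = 4 in each group), a change of -2.34 (SE 0.20, adjusted p = 2.2e-08). E2f2, an activator, changed by -1.81 (SE 0.18, adjusted p = 1.5e-07) and then 1.71 (SE 0.18, adjusted p = 4.0e-07). E2f1, also an activator, rose by 0.92 (SE 0.13, adjusted p = 1.0e-05). Lin52, a MuvB subunit, rose by 1.15 (SE 0.16, adjusted p = 7.0e-06). In the Sox2-guide libraries over the knockout-labelled ones, the MuvB subunit gene Rbbp4 changed by 0.59 (SE 0.07, adjusted p = 2.3e-06), the pocket protein gene Rb1 by -1.44 (SE 0.14, adjusted p = 1.9e-07) and Mybl1, a B-Myb relative, by -1.64 (SE 0.22, adjusted p = 6.4e-06).

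Of the 18 brakes of mitotic entry and CDK inhibitors, 8 had risen and 7 fallen in the knockout-labelled libraries, shares near those of all genes (37.6% and 29.4%). In the Sox2-guide libraries over them 5 rose and 5 fell, beside 30.5% and 30.2% of all genes. Cdkn1c, the CDK inhibitor p57, averaged 386 ± 56.1, 1772 ± 117 and 232 ± 36 normalised reads in WT-labelled, knockout-labelled and Sox2-guide libraries (SD, n = 4 in each group), with changes of 2.21 (SE 0.12, adjusted p = 1.5e-10) and -2.94 (SE 0.12, adjusted p = 7.2e-12). Btg2, an antiproliferative gene, averaged 338 ± 27.4, 1611 ± 39.7 and 345 ± 42.3 normalised reads in WT-labelled, knockout-labelled and Sox2-guide libraries (SD, n = 4 in each group), a change of 2.25 (SE 0.10, adjusted p = 6.9e-12). Cdkn1a, the CDK inhibitor p21, averaged 981 ± 72.2, 7002 ± 269 and 559.6 ± 195 normalised reads in WT-labelled, knockout-labelled and Sox2-guide libraries (SD, n = 4 in each group). These 3 genes were highest in the knockout-labelled libraries, while the list as a whole had a median log2 change of 0.07 there against WT. Whether they have a part in the change of the mitosis genes was not tested. Plk2 moved the other way, at -1.22 (SE 0.09, adjusted p = 7.1e-09) and 1.81 (SE 0.09, adjusted p = 7.7e-11). Plk3, a Polo-like kinase gene, changed by -2.53 (SE 0.38, adjusted p = 1.8e-05) in knockout-labelled against WT-labelled libraries. Cdkn2d, the CDK inhibitor p19, changed by 0.97 (SE 0.15, adjusted p = 2.5e-05) in Sox2-guide against knockout-labelled libraries.

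Among 35 genes of the G1/S transition and replication, 14 fell and 7 rose in the knockout-labelled libraries. In the Sox2-guide libraries over them 23 rose and 2 fell, and against WT 22 were higher and 2 lower. The shares of all genes were 29.4% lower and 37.6% higher, then 30.5% higher and 30.2% lower, and 30.1% higher and 22% lower against WT. Rrm2, a subunit of ribonucleotide reductase, averaged 1368 ± 22, 409.8 ± 39 and 1503 ± 228 normalised reads in WT-labelled, knockout-labelled and Sox2-guide libraries (SD, n = 4 in each group), with changes of -1.74 (SE 0.10, adjusted p = 2.3e-10) and 1.87 (SE 0.10, adjusted p = 1.5e-10). Tk1, thymidine kinase, changed by -1.05 (SE 0.11, adjusted p = 2.6e-07). Mcm6, a subunit of the replicative helicase, rose by 0.73 (SE 0.11, adjusted p = 2.2e-05). Pold1, of DNA polymerase delta, rose by 0.77 (SE 0.14, adjusted p = 1.1e-04). In the Sox2-guide libraries over the knockout-labelled ones, Gmnn, the licensing inhibitor geminin, changed by 1.26 (SE 0.10, adjusted p = 2.6e-08), Chaf1b, of a chromatin assembly factor, by -0.50 (SE 0.12, adjusted p = 0.0014) and Mcm6 by -0.32 (SE 0.11, adjusted p = 0.022). Whether the mitosis genes changed more than the replication genes was not tested.

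In all, 12 of the members overlap a tested gene on the opposite strand, and 0 overlap one on the same strand. They are Ccna2, Cdc20, Cdca8, Bub3, Kif20a, Kif4, Kif18a, Prc1, Nusap1, Cdc25b, Cdc25c and Ncapg. The sources used here do not give whether the counting used the strand, so their values could hold reads of the neighbour.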

How the data were processed

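Cultured mouse colon fibroblasts were profiled by 3′ tag sequencing (QuantSeq FWD, 75-nt single-end reads on a NextSeq 500, per the labels' protocols) against GRCm38 (per the submitters' processing notes). The sources used here do not name the aligner, counter or annotation, or any use of molecular identifiers. The values the authors deposited are a signal per gene, scaled so that each column sums to 10000000. Dividing by the smallest step gave whole reads for 100% of values (tolerance 0.01 read, largest deviation 3.965e-05), 43.3 M in all. Intervals are not given for single libraries, since groups hold 4.

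Of 23106 genes, 12676 with a mean of at least 10 were tested with limma 3.58.1 (trend, R 4.3.3) on log2(value + 1), all 12 libraries in 1 fit, Benjamini-Hochberg adjusted, called under 0.05. Such changes understate low genes. edgeR 4.0.16 and DESeq2 1.42.0 on the recovered reads, other filters, scalings, the pseudocount and leave-one-out fits were alternatives. Simulated data with known changes tested the scripts. Partner ratios had exact two-sided permutation tests over 70 assignments. Symbols and coordinates came from GENCODE vM21, and 23002 genes matched.

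Members, lists and tests were chosen with earlier results of these data known. Library values are given for the 2 members with the highest mean in each role, the 3 largest and 3 smallest changes per comparison and members called against the majority, and up to 4 called genes per other list are named in each of the 2 comparisons with the knockout-labelled libraries (the 2 smallest adjusted p per direction; those the rule gives against WT are left out for length). Other names were chosen after their values were seen.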

Additional observations from a re-analysis of the deposited data

Results flagged for a closer look

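In 21 of the 171 groups of 4 libraries (12.3%; chance alone gives about 1 in 20), 1 library lay apart from the other 3 by more of the group's range than Dixon's 95% critical value allows, and 14 of the 21 were Sox2-guide replicate 1. It was the low one for Cenpe (2840 normalised reads against 4662 to 4821 in the other 3), Cenpf (3355 against 5456 to 5877), Kif15 (708 against 1109 to 1179), Nusap1 (769 against 1357 to 1395), Ckap2l (1006 against 2039 to 2237) and Kif20b (1742 against 3976 to 4386). It was also low for Prc1 (2319 against 2979.9 to 3114), Cit (669 against 1008 to 1039.8), Smc2 (4501 against 8117 to 8470.1), Smc4 (9080.3 against 16162 to 17014), Ncapg (1573 against 2099 to 2177) and Mki67 (1996 against 4041 to 4317). It was the high one for Ccna2 (2639.7 against 2206 to 2267) and Aurka (1236 against 855 to 915).

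The fourth knockout-labelled library was low for Kif11 (459.5 against 555 to 569.6), Anln (498 against 729 to 773) and Cit (502 against 535 to 539) and high for Birc5 (2488 against 2088 to 2138), and the second was high for Ndc80 (779 against 669.8 to 685). In the WT-labelled group, replicate 3 was low for Spc24 (521 against 633 to 647) and replicate 1 high for Mki67 (4887 against 4205 to 4311).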

How the results depend on the processing

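The counts of members called in knockout-labelled against WT-labelled libraries (55 lower and 1 higher) were equal in every alternative, and those in Sox2-guide against knockout-labelled libraries were 52 or 53 higher and 1 lower. Against WT, the 8 higher members were 5 under edgeR and 5 under DESeq2, both without Cdca8, Foxm1 and Ncapd2, and from 7 to 14 when 1 library was left out, 14 without Sox2-guide replicate 1. The lower members were 12 to 16 when 1 library was left out and 18 under DESeq2. Of the 21 partner ratios, 0 passed the exact test, and limma called 8 with and 8 without the replicate block. Values near 0 changed sign. In Sox2-guide against knockout-labelled libraries these were Bub3 (-0.034 under quantile scaling, -0.0070 without mitochondrial reads, -0.049 to 0.10 when 1 library was left out), Smc4 (-0.020 under quantile scaling) and Ckap2 (-0.14 to 0.20), and the log2 ratios Ccnb1/Cdk1 (-0.012 to 0.29) and Aurkb/Birc5 (-0.063 to 0.25). In Sox2-guide against WT-labelled libraries these were Tpx2 (-0.0012 without mitochondrial reads, -0.046 under edgeR, -0.076 under DESeq2), Top2a (-0.17 under quantile scaling) and Aurka (-0.030 under quantile scaling, -0.037 under edgeR, -0.063 under DESeq2). Leaving out 1 library also turned Cenpf (-0.21 to 0.059), Hmmr (-0.19 to 0.12), Kif20b (-0.018 to 0.43), Aurka (-0.088 to 0.090), Spc24 (-0.14 to 0.11), Kif4 (-0.10 to 0.12), Aurkb (-0.11 to 0.092) and the ratio Ndc80/Nuf2 (-0.14 to 0.10). Kifc1 ranged from -0.27 to 0.065 in knockout-labelled against WT-labelled libraries. The cause was not tested. Replicate numbers did not pair the libraries: correlations of deviations between same-numbered libraries were -0.04 to 0.13, and 7 of 24 best matches had the same number. With the replicate block, Sox2-guide against WT had 10 members higher and 15 lower, and the counts in the other comparisons were unchanged. Depth limits Kifc1, the member with the fewest reads.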

Other observations

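Slu7, a splicing factor gene that lies 7493 bases from Pttg1 on chromosome 11 (43433744 to 43447981, plus strand, GRCm38; Pttg1 at 43420250 to 43426251, minus strand), was looked up after the values of Pttg1 were seen. It averaged 1335 ± 52.96 normalised reads under the WT label, 2537 ± 86.5 under the knockout label and 2066 ± 259 with the Sox2 guide (SD, n = 4 in each group), the same order as Pttg1. Its log2 change was 0.93 (SE 0.09, limma adjusted p = 6.6e-08) in knockout-labelled against WT-labelled libraries and -0.30 (SE 0.09, adjusted p = 0.0056) in Sox2-guide against knockout-labelled libraries. Pwwp2a, the next tested gene on that side at 255747 bases, had -0.09 (adjusted p = 0.45) and 0.05 (adjusted p = 0.67). On the other side, Hspd1-ps3 at 1919792 bases had -1.88 (adjusted p = 0.0089) and 1.17 (adjusted p = 0.092). Beyond it, Ccng1 at 2664939 bases had 1.48 (adjusted p = 6.8e-10) and -1.18 (adjusted p = 1.8e-08). Of all tested genes, 37.6% rose in the first comparison and 30.2% fell in the second. Whether position has a part in these changes was not tested.

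The dependence on base composition seen in Sox2-guide replicate 1 had the opposite sign in the other libraries of its group, as it must where each is compared with a mean that holds replicate 1: over the 57 members the Spearman rho with G+C content was -0.63, -0.52 and -0.21 for replicates 2, 3 and 4. In replicate 1, 14 of the 57 members had less than the mean of the other 3 divided by 1.5, as a ratio of normalised reads.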
